A study of Mus musculus with 3 samples.

Results

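Iron storage and transport was followed through 4 genes in 149 single cells from the mouse subventricular zone, a brain region that keeps neural stem cells. Fth1 and Ftl1 encode the heavy and light chains of ferritin, Trf encodes transferrin, and Tfrc encodes the transferrin receptor. The genes were chosen by name, and all 4 are among the 16178 genes of the filtered table. The cells came from male C57BL/6J mice, 8 per experiment, and all 3 plates form the single group SVZ, with no treatment or second genotype. The tissue was treated with trypsin, and cells that carry GLAST, a glutamate transporter of astrocytes and stem cells, were held on a magnetic column. Animals were pooled, and myelin was depleted in some of the experiments, without a label that says which. The sorted cells were sequenced by SORT-seq, in which each well of a plate has its own barcode and each transcript a molecular identifier. The series title puts the question of whether autofluorescence, the light a cell emits without any dye, tells activated from quiescent stem cells. An autofluorescence value was deposited for every cell.

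Ferritin is a hollow protein shell that stores iron. Its heavy chain oxidises ferrous iron and its light chain helps the mineral core to form, so the mix of chains differs between tissues. Transferrin carries ferric iron outside cells, and the transferrin receptor takes up iron-loaded transferrin by endocytosis. In the brain, oligodendrocytes are known as iron-rich cells and as a main source of transferrin mRNA, and microglia as cells that take up and store iron. When iron is scarce, iron regulatory proteins bind a hairpin called the iron-responsive element, which blocks translation of ferritin mRNA and stabilises transferrin receptor mRNA.

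That hairpin is printed here because it ties the ferritin chains and the receptor to one another and because it acts on the mRNA that SORT-seq counts. GENCODE M21 transcripts of the build GRCm38 were searched on the sense strand for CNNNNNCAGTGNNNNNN in which the 5 bases before the loop pair with the 5 bases that follow it, G with U included. The elements are given 5′ to 3′ in DNA letters, with the loop in capitals.
Fth1, 5′ UTR: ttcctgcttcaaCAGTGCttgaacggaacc
Ftl1, 5′ UTR: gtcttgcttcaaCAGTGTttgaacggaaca
Tfrc, 3′ UTR, the first: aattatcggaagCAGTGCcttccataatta
Tfrc, 3′ UTR, the second: cattatcgggagCAGTGTcttccataatgc
Tfrc, 3′ UTR, the third: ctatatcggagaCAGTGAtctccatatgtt
Tfrc, 3′ UTR, the fourth: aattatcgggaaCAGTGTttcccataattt

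The ferritin elements lie at chr19:9982732-9982761 on the plus strand for Fth1 and at chr7:45459778-45459807 on the minus strand for Ftl1, and 26 of their 30 bases are identical. The 4 elements of Tfrc lie in its last exon on the plus strand, the first at chr16:32631219-32631248 and the fourth at chr16:32631710-32631739. No protein-coding transcript of Trf held the motif, which says only that these letters are not in its annotated transcripts. Of 21877 genes with a protein-coding transcript, 294 held it, or 1.34%. The genes themselves are annotated at chr19:9980598-9985098 for Fth1, chr7:45457944-45459884 for Ftl1, chr9:103204001-103230444 for Trf and chr16:32608920-32632794 for Tfrc. The annotation also names 14 relatives of the ferritin genes, annotated pseudogenes and protein-coding copies among them, and 0 of these are rows of the table. Reads from such copies could have been counted with Fth1 or Ftl1, so the levels of these genes carry that uncertainty.

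The filtered table holds 43, 45 and 61 cells from plates 1, 2 and 3, with 297573, 413728 and 478504 estimated transcripts. The authors' 5 clusters were checked against marker lists. Clusters 0 (42 cells) and 2 (35 cells) were oligodendrocyte-like, with the highest level of all 9 oligodendrocyte markers between them. Cluster 1 (36 cells) was microglia-like, with the highest level of 8 of 8 microglia markers. Cluster 3 (30 cells) was like quiescent stem cells or astrocytes, with 10 of 10 markers, and cluster 4 (6 cells) like activated stem cells or progenitors, with 8 of 8. The samples are labelled as neural stem cells, and clusters 0, 1 and 2 go against that label. Plate and cluster were unevenly mixed: 25 of the 30 cells of cluster 3 came from plate 1, and 41 of the 42 cells of cluster 0 from plates 2 and 3. Median depth per cell was 9530 estimated transcripts in cluster 0, 8615 in cluster 2, 3455 in cluster 1, 4192 in cluster 3 and 17377 in cluster 4. Levels are given as CPM, the transcripts of a gene scaled to a common library total, for the summed cells of a plate and cluster, and tests use the 11 such sums with at least 3 cells. The authors drew the clusters from these same transcripts, so tests between clusters describe how far the groups differ and are not independent of how they were drawn.

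Fth1, the ferritin heavy chain, was highest in oligodendrocyte-like cells and lowest in the stem and progenitor-like clusters. In cluster 0 it reached 8214 and 9919 CPM on plates 2 and 3, and the single cell on plate 1 had 7391 CPM. In cluster 2 it reached 5974, 6097 and 6625 CPM on plates 1, 2 and 3, with 3 cells on plate 1. Microglia-like cells of cluster 1 had 2092, 1304 and 1385 CPM on the same plates, and cluster 3 had 620 and 808 CPM on plates 1 and 3. Cluster 4 had 566 CPM on plate 1. Every sum of clusters 0 and 2 lay above every sum of the other clusters, and every sum of cluster 1 lay above those of clusters 3 and 4.

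In the fit, clusters 0 and 2 were averaged with equal weight on the log2 scale, and Fth1 was 6.13-fold higher there than in cluster 1, a log2 difference of 2.61 ± 0.33 (SE; adjusted p = 8.09e-14, edgeR's quasi-likelihood test with Benjamini-Hochberg adjustment). Against cluster 3 the log2 difference was 3.71 ± 0.43 (SE; adjusted p = 5.79e-16, same test), or 13.1-fold. Between clusters 1 and 3 the difference was 1.09 ± 0.41 (SE) and just missed the threshold of 0.05, with an adjusted p of 0.058 in edgeR. It passed with size factors of the RLE type (1.13, adjusted p = 0.014, edgeR) and in DESeq2 (1.13, adjusted p = 0.013), and its adjusted p ranged from 0.0065 to 0.42 over the alternatives tried. The difference between clusters 0 and 2 was 0.62, with a 95% interval from -0.05 to 1.30 (adjusted p = 1, edgeR). Restricted to sums of at least 10 cells, it was 0.42 ± 0.12 (SE; adjusted p = 0.042, edgeR), and over all alternatives the adjusted p ran from 0.042 to 1.

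**Figure D1:**
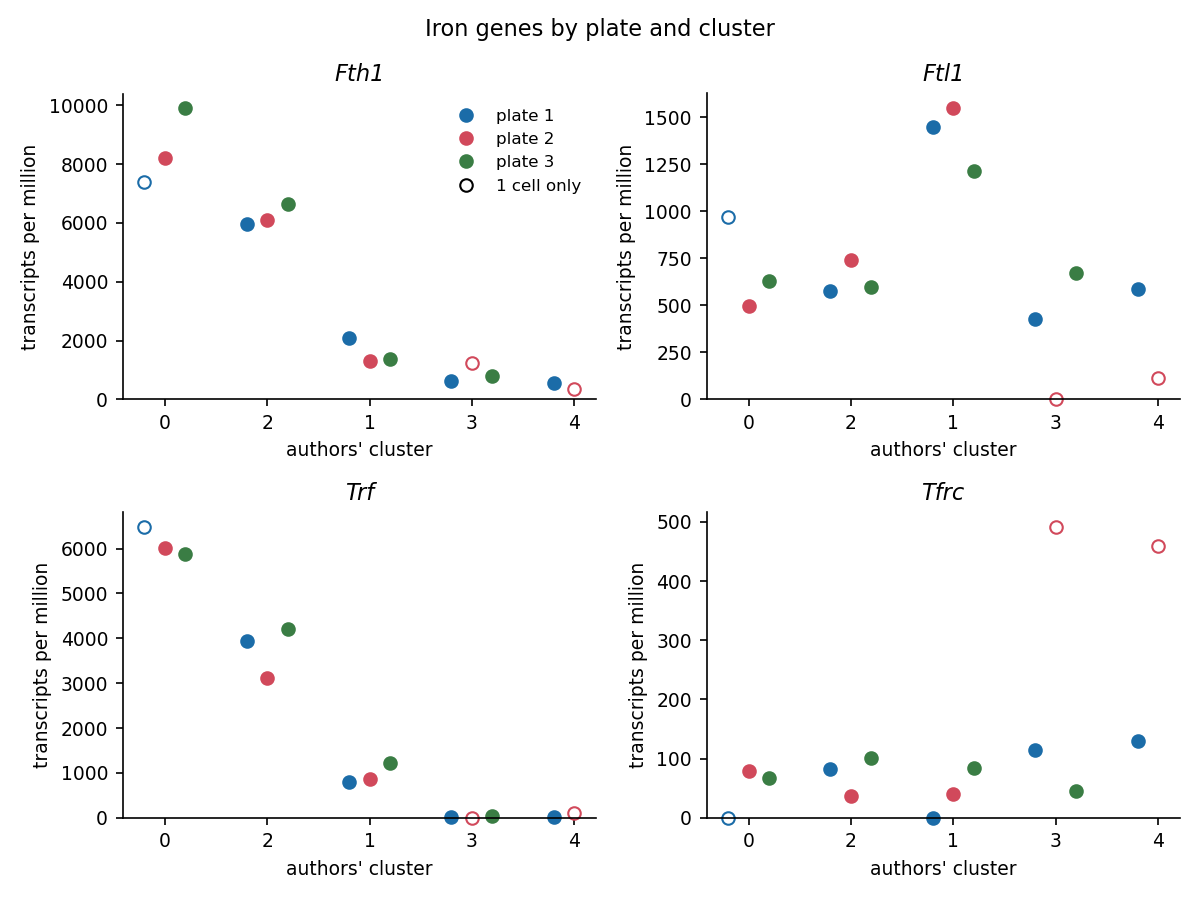
Level of each gene, in CPM of the summed cells, by authors' cluster (x axis) and plate (colour); open circles are combinations of 1 cell. Fth1 and Trf are highest in clusters 0 and 2, Ftl1 is highest in cluster 1 at 1217 to 1550 CPM, and Tfrc is low in every cluster.

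Ftl1, the ferritin light chain, had another order, with the microglia-like cells on top. Clusters 0 and 2 ranged from 498 to 743 CPM over their sums of at least 3 cells. Cluster 1 had 1449, 1550 and 1217 CPM on plates 1, 2 and 3. Cluster 3 had 428 and 673 CPM on plates 1 and 3, and cluster 4 had 587 CPM on plate 1. The sums of cluster 1 overlapped with no other cluster, and clusters 0, 2, 3 and 4 overlapped with each other.

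Ftl1 fell to 0.532 of its cluster 1 level in clusters 0 and 2, a log2 difference of -0.91 ± 0.36 (SE; adjusted p = 0.041, edgeR). That call was not stable: it was lost without the filter on low counts (-0.64, adjusted p = 0.42), without the plate block (-0.84, adjusted p = 0.062), with clusters redrawn without iron genes (-0.84, adjusted p = 0.15) and without plate 2 (-0.98, adjusted p = 0.26). Over all alternatives its adjusted p ran from 1.66e-05, with sums of at least 10 cells, to 0.42. Between cluster 1 and cluster 3 the difference was 1.22 ± 0.49 (SE; adjusted p = 0.081, edgeR), and it passed with RLE size factors (1.27, adjusted p = 0.0081, edgeR) and in DESeq2 (1.25, adjusted p = 0.032), within a range from 0.0081 to 0.45. Between clusters 0 and 2 and cluster 3 it was 0.31, with a 95% interval from -0.61 to 1.24 (adjusted p = 0.77, edgeR).

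The mix of the chain transcripts was measured within each plate as the ratio of Fth1 to Ftl1. Protein was not measured, so this ratio does not give the mix of chains in ferritin. Both genes are counted by their 3′ ends with molecular identifiers, and no length scaling was applied to the ratio. In cluster 0 it was 16.5 on plate 2 and 15.7 on plate 3, and in cluster 2 it was 10.4, 8.20 and 11.1 on plates 1, 2 and 3. In cluster 1 it was 1.44, 0.842 and 1.14 on the same plates, in cluster 3 it was 1.45 and 1.20 on plates 1 and 3, and in cluster 4 it was 0.963 on plate 1. Oligodendrocyte-like cells thus had the higher ratio on every plate, with no overlap.

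Relative to cluster 1, the log2 ratio in clusters 0 and 2 was higher by 2.85, 3.79 and 3.54 on plates 1, 2 and 3, with a mean of 3.39 ± 0.49 (SD, n = 3 plates), or 10.5-fold. The exact two-sided sign-flip permutation test gave p = 0.25, the smallest that 3 plates allow. Relative to cluster 3 it was higher by 2.84 and 3.46 on plates 1 and 3, which with 2 plates cannot go below an exact p of 0.5. Cluster 1 and cluster 3 differed by -0.003 and -0.08 on these plates. In single cells, Fth1 transcripts outnumbered Ftl1 transcripts in 42 of 42 cells of cluster 0 and 35 of 35 of cluster 2. They did so in 15 of 36 cells of cluster 1, 15 of 30 of cluster 3 and 3 of 6 of cluster 4.

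**Figure D2:**
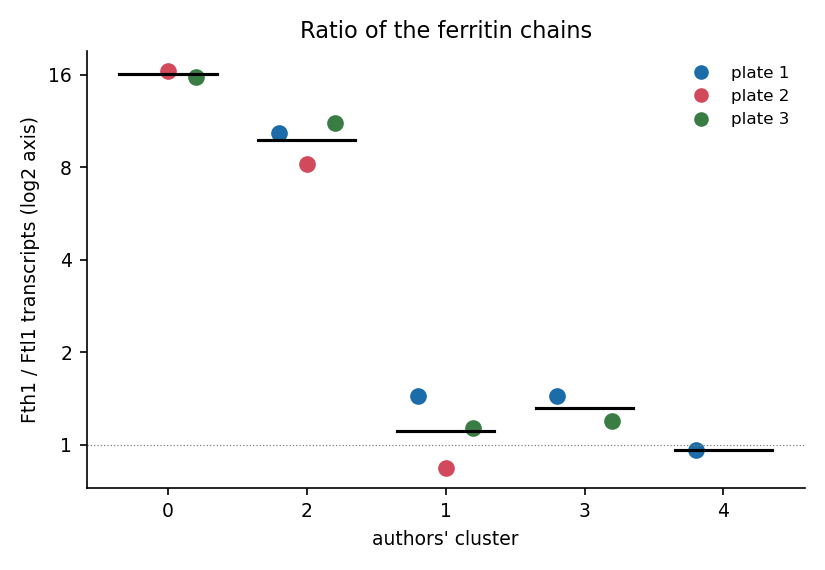
Ratio of Fth1 to Ftl1 transcripts (y axis, log2 scale) by authors' cluster and plate, for sums of at least 3 cells; the bar is the mean of the log2 ratios. Clusters 0 and 2 sit between 8.20 and 16.5, and clusters 1, 3 and 4 between 0.842 and 1.45.

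Trf, transferrin, was the gene with the steepest steps between clusters. In cluster 0 it reached 6017 and 5886 CPM on plates 2 and 3, and in cluster 2 it reached 3931, 3125 and 4213 CPM on plates 1, 2 and 3. Cluster 1 had 809, 869 and 1217 CPM on these plates. Cluster 3 had 15.3 CPM on plate 1 and 44.8 CPM on plate 3, which is 3 transcripts in 30 cells. Cluster 4 had 2 transcripts in 6 cells. The levels of clusters 0, 2 and 1 formed 3 ranges without overlap, each above cluster 3.

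Trf was 6.11-fold higher in clusters 0 and 2 than in cluster 1, a log2 difference of 2.61 ± 0.35 (SE; adjusted p = 1.38e-12, edgeR). The difference from cluster 3 passed the same test (adjusted p = 5.74e-29, edgeR), as did cluster 1 against cluster 3 (adjusted p = 9.04e-11, edgeR). The fitted folds against cluster 3 rest on its 3 transcripts, so the pooled ratios are given with their counting error. Clusters 0 and 2 had 261 times the level of cluster 3 (95% exact interval from 89.2 to 1266), and cluster 1 had 48.1 times (from 16.1 to 237). These intervals cover counting error only. The difference between clusters 0 and 2 was 0.65, with a 95% interval from -0.08 to 1.38 (adjusted p = 1, edgeR). It was 0.62 ± 0.13 (SE; adjusted p = 0.000496, edgeR) when sums had at least 10 cells, and its adjusted p reached 1 under others. For Fth1 and Trf, the called differences from clusters 1 and 3 stayed called in the same direction in 62 of 62 values under alternatives, among them clusters redrawn without iron genes, in which 146 of 149 cells kept their class.

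In single cells, Trf was found in 42 of 42 cells of cluster 0 and 33 of 35 of cluster 2, at medians of 5388 and 3817 CPM. It was found in 33 of 36 microglia-like cells, at a median of 787 CPM and a highest value of 3844 CPM. It was found in 3 of 30 cells of cluster 3, each with 1 transcript, while median depth was 3455 estimated transcripts in cluster 1 and 4192 in cluster 3. After thinning each cell to 2000 transcripts, which left out 5 cells of cluster 1, Trf remained in 25 of 31 cells of cluster 1 and 0 of 30 of cluster 3 (95% exact intervals from 62.5 to 92.5% and from 0 to 11.6%). These intervals cover counting error over cells of pooled plates, and limit cells with a Trf transcript at that depth, not cells that express Trf. Free RNA in a well can give such transcripts, so the level in cluster 1 was set beside that of oligodendrocyte markers.

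**Figure D3:**
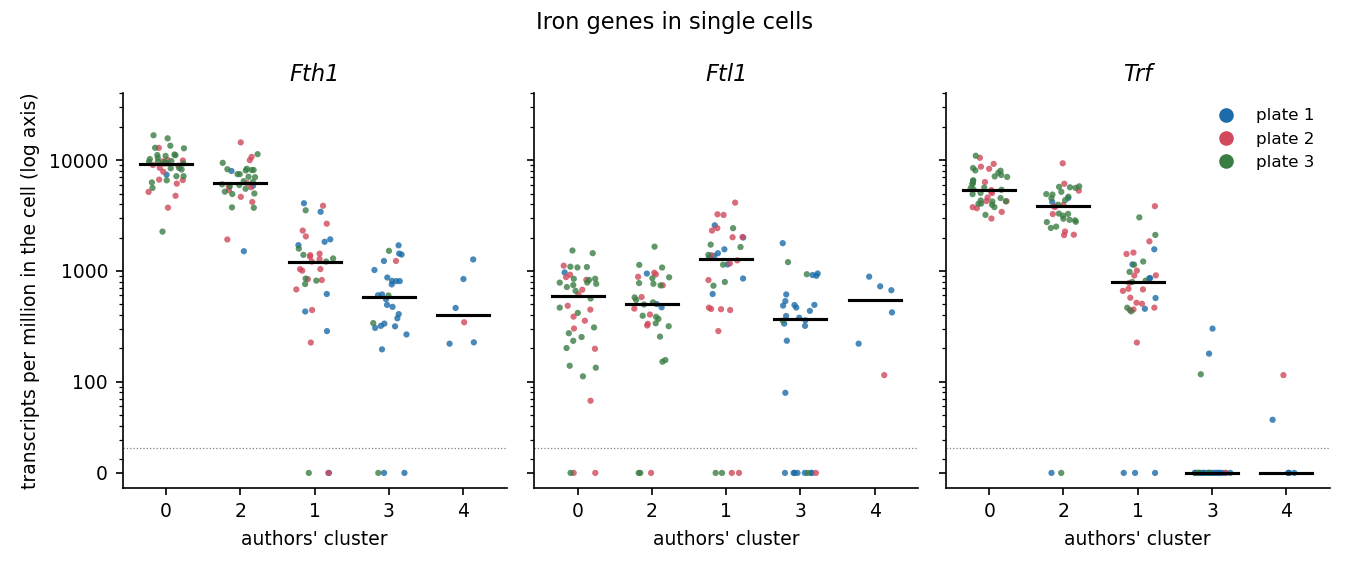
Level in each cell in CPM (y axis, log scale; cells without a transcript sit below the dotted line at 0) by authors' cluster, coloured by plate; the bar is the median over cells. The microglia-like cells of cluster 1 form a Trf band with a median of 787 CPM, above cluster 3, where 27 of 30 cells had none.

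Relative to oligodendrocyte-like cells, microglia-like cells had more Trf than any of the 9 oligodendrocyte markers. On plates 1, 2 and 3, its level in cluster 1 was 15.8, 18.1 and 23.7% of the level in clusters 0 and 2 on the same plate. The 9 oligodendrocyte markers had median shares of 0.493, 5.55 and 6.93%, and their highest shares were 3.24, 10.5 and 16.5%. Trf was thus above 9 of 9 markers on each plate. The gap was widest on plate 1, where cluster 1 held 24 transcripts of Trf. The markers there ranged from 0 transcripts, for Mog and Ermn, to 7, for Cnp. The reference on plate 1 was small, with 1 cell of cluster 0 and 3 cells of cluster 2. The marker list summed to 640, 4380 and 5287 CPM in cluster 1 on plates 1, 2 and 3. Choroid plexus epithelium also makes transferrin; 2 of its 4 listed markers, Ttr and Kcnj13, are in the table, and both were at 0 in all kept cells. The source of the Trf transcripts in cluster 1 was not tested.

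On plate 1, Trf had 809 CPM in cluster 1, against 15.3 CPM in cluster 3, whose wells shared the plate. Wells left out of the filtered table, with few transcripts each, had 286, 1656 and 991 CPM of Trf on plates 1, 2 and 3. These levels rest on 1, 20 and 13 transcripts. Cluster 1 had 809, 869 and 1217 CPM on these plates, on 24, 64 and 29 transcripts. Its values were above those wells on plates 1 and 3 and below them on plate 2. No interval was computed for this comparison, and the wells of plate 1 held only 1 transcript. The part of free RNA in the level of cluster 1 was not tested. Within cluster 1, the 3 cells with at least 1% of their transcripts from oligodendrocyte markers had 1095 CPM of Trf, and the 33 cells with less had 904 CPM. Over all 36 cells, of pooled plates, Spearman's rho between Trf and the marker share was 0.199. Without those 3 cells, the difference between clusters 0 and 2 and cluster 1 was 2.54 ± 0.37 (SE; adjusted p = 3.36e-10, edgeR). With 33 of 36 cells kept, that fit cannot show the part of free RNA. The share for Fth1 was 31.6, 17.8 and 16.4% on plates 1, 2 and 3, which is above all 9 markers on plates 1 and 2 and just under the highest on plate 3. For Ftl1 it was 192, 258 and 198%.

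**Figure D4:**
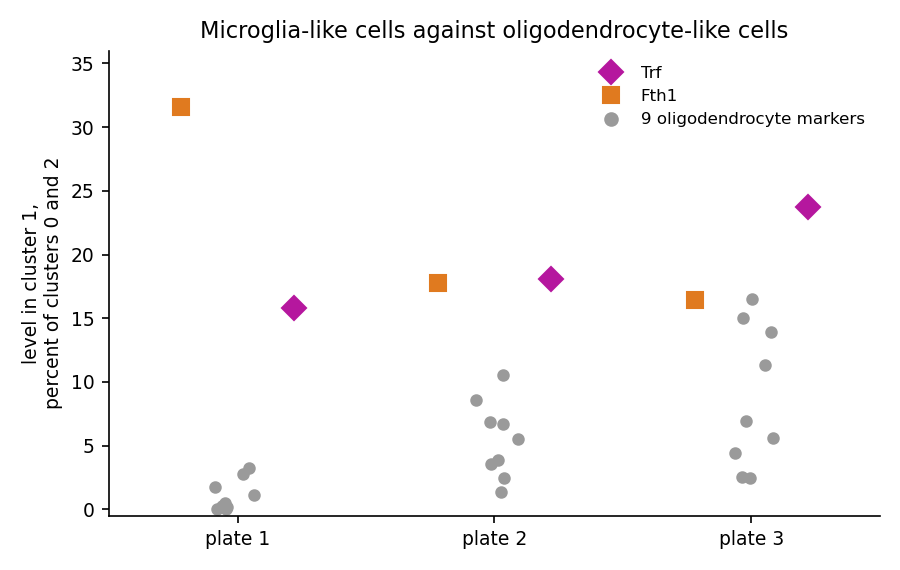
Level of a gene in cluster 1 as a percent of its level in clusters 0 and 2 on the same plate (y axis), for Trf, Fth1 and 9 oligodendrocyte markers. Trf, at 15.8, 18.1 and 23.7%, lies above every marker on each plate. On plate 1 the reference is 1 cell of cluster 0 and 3 cells of cluster 2.

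Tfrc, the transferrin receptor, was sparse everywhere, with 97 estimated transcripts in 50 cells in all. It had 15 and 16 transcripts in cluster 0 on plates 2 and 3, which is 78.5 and 67.8 CPM. Cluster 2 had 82.2, 36.7 and 102 CPM on plates 1, 2 and 3, and cluster 1 had 0, 40.7 and 83.9 CPM on 0, 3 and 2 transcripts. Cluster 3 had 115 and 44.8 CPM on plates 1 and 3, and cluster 4 had 130 CPM on plate 1. Most of these ranges overlapped, and no neighbours in the order could be told apart.

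The log2 difference in Tfrc between clusters 0 and 2 and cluster 1 was 1.17, with a 95% interval from -0.54 to 2.87 (adjusted p = 0.35, edgeR). For cluster 4 against cluster 3, the activated-like against the quiescent-like cells, it was 0.63, with an interval from -1.39 to 2.66 (adjusted p = 0.77, edgeR). Cluster 4 had a single sum, which is assumed to vary like the others. In that comparison Fth1 differed by -0.03 (from -1.07 to 1.01; adjusted p = 1, edgeR) and Ftl1 by 0.52 (from -0.70 to 1.74; adjusted p = 0.67, edgeR). Trf was at or under 3 transcripts in both clusters, so no fold is given.

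All 4 genes passed the filter on low counts in the fit between clusters. Clusters 0 and 2 against cluster 1 called 2 of the 4 higher and 1 lower, where 28.7% of all 5329 tested genes were called, 15.7% higher and 13% lower. Against cluster 3 they called 2 of 4 higher and 0 lower, with 6.53% of all genes higher and 6.79% lower. Cluster 1 against cluster 3 called 1 of 4 higher, with 5.78% of all genes higher and 6.77% lower. Cluster 0 against cluster 2 called 0 of 4 (0.169% of all genes, 0.131% higher and 0.0375% lower; 133 genes at an unadjusted p under 0.05; 1 gene called by DESeq2). Cluster 4 against cluster 3 called 0 of 4, where 9.25% of all genes were called, 5.85% higher and 3.4% lower; with 1 sum of 5 cells on the cluster 4 side, these calls borrow their spread from the other clusters. The median of all genes in the first of these comparisons was 0.20 with TMM scaling and -0.01 with RLE scaling. Relative to the median under TMM, Fth1 differed by 2.41, Trf by 2.41 and Ftl1 by -1.11. The median was 0.08 with TMM and -0.10 with RLE in clusters 0 and 2 against cluster 3, and 0.18 and -0.05 in cluster 4 against cluster 3.

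Beyond these genes, a list of 48 others in iron uptake, export, regulation, haem and iron-sulphur cluster assembly had 38 rows in the table, of which 18 passed the filter. In clusters 0 and 2 against cluster 1, 4 of the 18 were higher and 2 lower, beside 15.7% and 13% of all genes, with a median of 0.36 against 0.20 over all genes. The counts fell to 1 higher and 2 lower of 13 without plate 2 and to 1 and 1 of 14 without plate 3, and DESeq2 called 2 higher and 2 lower of 18. Slc48a1, a transporter that moves haem out of endosomes and lysosomes, was higher by 4.01 ± 0.52 (SE; adjusted p = 6.19e-13, edgeR). Fbxl5, the iron-sensing subunit of the ligase that degrades iron regulatory proteins, was higher by 2.63 ± 0.66 (SE; adjusted p = 0.000498, edgeR). Fech, ferrochelatase, which puts iron into haem, was higher by 1.93 ± 0.67 (SE; adjusted p = 0.017, edgeR). Hmox2, the constitutive haem oxygenase, was called higher by 3.20 ± 0.97 (SE; adjusted p = 0.0053, edgeR). It had 78 transcripts in clusters 0 and 2 and 3 in cluster 1, a pooled ratio of 4.14 (95% exact interval from 1.37 to 20.5). The p-value belongs to the fit and not to the pooled ratio. With 18 genes tested, 4 higher and 2 lower are near the shares of all genes, and no common theme is read from them.

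The pair that was lower was Slc25a37 and Slc40a1. Slc25a37, mitoferrin, which brings iron into mitochondria, differed by -4.02 ± 0.74 (SE; adjusted p = 7.57e-07, edgeR), with 13.7 CPM in clusters 0 and 2 and 275 CPM in cluster 1. Slc40a1, ferroportin, the exporter of cellular iron, differed by -5.38 ± 1.24 (SE; adjusted p = 0.00013, edgeR). It had 2 transcripts in clusters 0 and 2 and 20 in cluster 1. In pooled counts cluster 1 thus had 62.8 times the level (95% exact interval from 15.2 to 554). Ferroportin mRNA is also known to hold an iron-responsive element, and the search found 1 in its 5′ UTR, at chr1:45925464-45925493 on the minus strand. Of 51 iron genes searched, the ferritin chains and Tfrc included, 5 held the motif (9.80%), beside 1.34% of all genes. Bola3 was also among them, with a site in its 3′ UTR, and whether that site acts was not tested. The letters of the Slc40a1 element are printed for comparison with the ferritin elements.
Slc40a1, 5′ UTR: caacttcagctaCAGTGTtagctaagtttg

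Against cluster 3, clusters 0 and 2 had 3 of the 18 genes higher and 0 lower, beside 6.53% and 6.79% of all genes, with a median of 0.40 against 0.08 over all genes. That count rested on single plates: 1 of 18 was higher without plate 1, 2 of 13 without plate 2, and 0 of 14 without plate 3, where the list median was -0.22. Slc48a1 was higher by 2.25 ± 0.54 (SE; adjusted p = 0.000647, edgeR) and Fbxl5 by 2.21 ± 0.76 (SE; adjusted p = 0.031, edgeR). Hmox2 was called higher, at a fitted log2 difference of 8.31 ± 1.80 (SE; adjusted p = 9.45e-05, edgeR). The sums of cluster 3 in that fit were at 0 CPM, so counts do not set the size of this difference. Over all cells there were 78 transcripts against 1, a pooled ratio of 15.3 (95% exact interval from 2.67 to 613). The p-value does not test that ratio, which is far below the fitted value. Cluster 1 against cluster 3 had 1 of 18 higher, which was Slc25a37 at 3.07 ± 0.98 (SE; adjusted p = 0.018, edgeR), with a list median of 0.20 against -0.03 over all genes. This is near the 5.78% of all genes called higher, and with plate 1, 2 or 3 left out 0 listed genes were higher; 1 was lower without plate 3. Cluster 0 against cluster 2 and cluster 4 against cluster 3 had 0 of 18 called. DESeq2 called 2 of the 18 higher and 0 lower in clusters 0 and 2 against cluster 3, and 1 lower in cluster 4 against cluster 3.

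Over the 11 sums, the levels of Fth1 and Trf went together (Pearson r = 0.935 of log2 CPM), whereas Fth1 and Ftl1 did not (r = -0.171). These sums share plates and the oligodendrocyte-like clusters supply 5 of the 11, so r describes the order of clusters. Of 5328 other genes, the nearest to Fth1 were Epb4.1l3, Gab1, Slc12a2, Taldo1 and Rtn4 (r from 0.956 to 0.968). The nearest to Trf were Rhog, Evi2a, Chn2, Dock10 and Tppp (r from 0.957 to 0.970), and the nearest to Ftl1 were Maf, Epsti1, Anxa3, Rgs10 and Syk (r from 0.947 to 0.964). The nearest to Tfrc were Luc7l, Lrrc58, Psmd6, Ppp1r15b and Csnk2a1 (r from 0.881 to 0.929).

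Iron genes were then set against autofluorescence. Median autofluorescence, in arbitrary units, was 4896 in cluster 1, 1826 in cluster 3, 1367 in cluster 0, 1184 in cluster 4 and 1022 in cluster 2, so the comparison was made within plate and cluster. Cells above the median of their own plate and cluster are called high and the others low. Autofluorescence was measured apart from the transcripts.

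Within plate and cluster, none of the 4 genes differed past the threshold. Fth1 had 1287, 6224 and 7988 CPM in high cells on plates 1, 2 and 3, against 2002, 5854 and 7293 CPM in low cells. Ftl1 had 587, 882 and 658 CPM in high cells on these plates, against 668, 604 and 633 CPM in low cells. Trf had 549, 4321 and 4771 CPM in high cells, against 1154, 3553 and 4573 CPM in low cells. Tfrc had 97.8, 58.7 and 51.4 CPM in high cells, against 97.2, 83.3 and 129 CPM in low cells. For Fth1, Ftl1 and Trf, high cells were lower on plate 1 and higher on plates 2 and 3. The share of transcripts from clusters 0 and 2, where Fth1 and Trf were highest, differed in the same directions. On plates 1, 2 and 3, clusters 0 and 2 supplied 11.9, 84.5 and 92.3% of the transcripts of high cells. They supplied 18.1, 72.8 and 87.3% of those of low cells. Cluster 1, where Ftl1 was highest, supplied less of the high side on each plate. Its shares were 7.58, 15.5 and 3.06% in high cells and 12.2, 20.5 and 7.99% in low cells.

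The log2 difference, high minus low, was -0.06 for Fth1 (95% interval from -0.55 to 0.44), 0.22 for Ftl1 (from -0.29 to 0.73), -0.13 for Trf (from -0.67 to 0.41) and -0.56 for Tfrc (from -1.42 to 0.29). Adjusted p-values in edgeR's quasi-likelihood test were 0.998, 0.969, 0.992 and 0.957, in that order of genes. Of all 3540 genes tested, 0% were called; 186 had an unadjusted p under 0.05, and DESeq2 called 0. For Fth1 the interval, up to a rise of 0.44 and a fall of 0.55, holds for all clusters summed, with a mix that differed between the sides. It does not bound a change within a single cluster. With sums kept apart by cluster as well as plate, which holds that mix equal, Fth1 differed by 0.07, Ftl1 by 0.32 and Trf by -0.02 (adjusted p = 0.997 each, edgeR). Directions turned under other cell choices: without combinations of 1 cell, Fth1 differed by 0.13 and Trf by 0.32, and between the upper and lower tercile Fth1 differed by 0.42 and Trf by 0.99 (adjusted p = 0.93 and 0.83, edgeR).

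In the microglia-like cells, plates went opposite ways for both ferritin chains. Ftl1 had 1660, 2311 and 1118 CPM in high cells of cluster 1 on plates 1, 2 and 3, against 1328, 889 and 1276 CPM in low cells. High cells were above low cells on plates 1 and 2 and below them on plate 3. The log2 difference was 0.66, with a 95% interval from -0.18 to 1.49 (adjusted p = 0.999, edgeR). It ranged from 0.10 to 0.97 when 1 plate was left out in turn. Fth1 had 738, 1403 and 2238 CPM in high cells and 2872, 1219 and 873 CPM in low cells, with opposite directions on plates 1 and 3 and a log2 difference of -0.05 (from -0.88 to 0.79). Without plate 1, Fth1 differed by 0.68. Trf differed by 0.22 (from -0.78 to 1.22). The fit tested 210 genes, of which 0% were called and 2 had an unadjusted p under 0.05; DESeq2 called 0.

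In the oligodendrocyte-like cells of clusters 0 and 2, none of the 3 genes tested differed past the threshold. Trf had 4197, 4945 and 5110 CPM in high cells on plates 1, 2 and 3, against 5661, 4636 and 5150 CPM in low cells. On plate 1 the high side was a single cell. The log2 differences were -0.12 for Fth1 (95% interval from -0.59 to 0.34), -0.11 for Ftl1 (from -0.68 to 0.47) and -0.11 for Trf (from -0.59 to 0.36), and 0% of 2589 genes were called (72 at an unadjusted p under 0.05; 0 by DESeq2). The effect in cluster 1 minus that in clusters 0 and 2 was 0.63 for Ftl1 (from -0.39 to 1.65), -0.17 for Fth1 (from -1.13 to 0.79) and 0.10 for Trf (from -0.93 to 1.13). None passed the test of the difference (adjusted p = 1, edgeR; 0% of 773 genes were called, and 19 had an unadjusted p under 0.05).

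In cluster 3, the quiescent-like cells, plates 1 and 3 could be used. Fth1 had 588 and 1180 CPM in high cells on these plates, against 670 and 229 CPM in low cells, where plate 3 had 2 cells on each side. The log2 differences were 0.54 for Fth1 (95% interval from -1.36 to 2.43) and 0.55 for Ftl1 (from -1.71 to 2.82), which leaves room for large changes of either chain. Of 437 genes 0% were called, and 7 had an unadjusted p under 0.05. Trf and Tfrc did not pass the filter there.

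**Figure D5:**
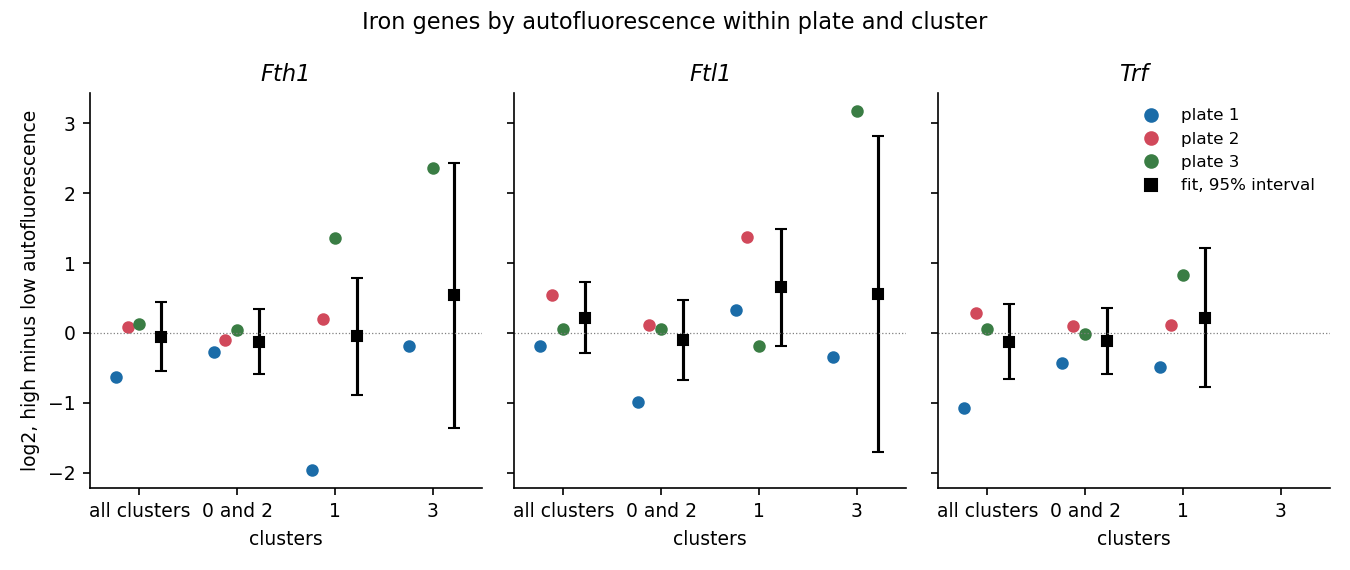
Log2 difference between cells of high and low autofluorescence (y axis) for all clusters together, clusters 0 and 2, cluster 1 and cluster 3; coloured points are plates and black squares the fitted value with its 95% interval. Every interval includes 0, and plates fall on both sides of it in each comparison with Ftl1.

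Over whole plates, with high and low taken without regard to cluster, the sides differed in their cells. Clusters 0 and 2 made up 4.76, 27.3 and 60.0% of high cells on plates 1, 2 and 3, against 13.6, 82.6 and 96.8% of low cells. Cluster 1 held 22.4, 32.5 and 9.56% of the transcripts of high cells, against 0.937, 4.39 and 0% of those of low cells. Ftl1 had 648, 1034 and 682 CPM in high cells on these plates, against 616, 496 and 612 CPM in low cells. It was higher on each plate, by a log2 difference of 0.45 with a 95% interval from -0.22 to 1.12 (adjusted p = 0.70, edgeR). Fth1 differed by -0.13 (adjusted p = 0.93, edgeR) and Trf by -0.11 (adjusted p = 0.94, edgeR). In this comparison 4.03% of 3723 genes were called, 3.89% higher and 0.134% lower, and 0 of the 4 iron genes. Without cluster 1, the mean Ftl1 level was 564 ± 150 CPM in high cells and 561 ± 82.3 CPM in low cells (SD, n = 3 plates). These means hide opposite plates. Ftl1 had 391, 652 and 650 CPM in high cells on plates 1, 2 and 3, against 641, 477 and 566 CPM in low cells. It was lower in high cells on plate 1 and higher on plates 2 and 3.

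From cell to cell within a plate and cluster, the level of a gene and the autofluorescence of the cell gave no common direction. Over the 8 combinations with at least 8 cells, Spearman's rho ran from -0.567 to 0.279 for Fth1, with 5 positive, from -0.368 to 0.530 for Ftl1, with 4 positive, and from -0.661 to 0.500 for Trf, with 5 positive. Autofluorescence also moved with depth in cluster 2, with rho of 0.636 on plate 2 and 0.792 on plate 3. These coefficients describe cells of the same plate, which share a library, and carry no test.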

How the data were processed

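The deposited tables hold estimated counts of transcripts per gene and well, which the authors made from molecular identifiers; per the labels these are SORT-seq data. Autofluorescence is an intensity in arbitrary units, as deposited, and cluster numbers are the authors'. Seurat 4.1.1, R 4.2.0 and BWA 0.7.15 stand in the submitters' processing notes, beside mm10 and hg19, with no role stated; which annotation was used is not given. Inverting the correction for identifier collisions gave whole numbers for 100% of 349688 values above 0 (tolerance 1e-06).

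The genes and lists were chosen with earlier results of these data known. Named genes are the 4 iron genes in every comparison, listed iron genes past the threshold (at most 10 per comparison) and, for each iron gene, the 5 with the highest Pearson r. The authors' cluster numbers defined the groups, and 8 mice were pooled per experiment. Estimated counts were summed per plate and cluster (at least 3 cells), rounded and tested with edgeR 4.0.16 (R 4.3.3): TMM, its low-count filter, quasi-likelihood F test, Benjamini-Hochberg adjustment at 0.05. Plate was a block, since sums of a plate share its library. p-values measure the spread between plates' sums, which may be technical. SE is the absolute log2 difference over the root of F. DESeq2 1.42.0, RLE scaling, thinning to 2000 transcripts and redrawn clusters were alternatives. Fits were tested on simulated data. No doublet caller was run. Plates use the same well labels (50 of 86 labels occur on more than 1 plate), which are positions and not shared cells. Intervals of shares are Clopper-Pearson at 95%.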

Additional observations from a re-analysis of the deposited data

Results flagged for a closer look

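Fth1 moved in opposite directions with autofluorescence in the oligodendrocyte-like clusters, a difference that was not called. In cluster 0 it had 9362 CPM in high cells and 7160 CPM in low cells on plate 2, and 10607 and 8984 CPM in high and low cells on plate 3. In cluster 2 it had 5872, 4952 and 6397 CPM in high cells on plates 1, 2 and 3, against 6213, 8819 and 7109 CPM in low cells. Plate 1 of cluster 2 had 1 high cell. The difference between the effects, cluster 0 minus cluster 2, was 0.81 on the log2 scale (95% interval from 0.05 to 1.57). Its unadjusted p was 0.039 and its adjusted p 0.89 in edgeR's quasi-likelihood test, which was added after the values were seen. Only plates 2 and 3 entered this fit, since plate 1 had too few high or low cells in both clusters. The same difference was -0.85 for Ftl1 and 0.70 for Trf (adjusted p = 0.89 each, edgeR). In that fit 0 of 2267 genes were called, and 108 had an unadjusted p under 0.05. Autofluorescence moved with depth in cluster 2 (rho of 0.636 and 0.792 on plates 2 and 3) more than in cluster 0 (0.246 and 0.359); its part in the result was not tested.

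Iron transcripts were also present in the 86 wells that the filtered table leaves out, which enter no comparison and held a median of 266 estimated transcripts. Fth1 had 152 transcripts in 53 of these wells. By plate this was 1142, 8199 and 3736 CPM in left-out wells on plates 1, 2 and 3, against 1658, 6053 and 7717 CPM in the kept cells, with plate 2 going the other way from plates 1 and 3. Trf had 34.0 transcripts in 24 wells, at 286, 1656 and 991 CPM on plates 1, 2 and 3, against 863, 3964 and 4694 CPM in the kept cells, and was lower on each plate. The value of the left-out wells on plate 1 is 1 transcript. Ftl1 had 15.0 transcripts in 12 wells, of which 4 on plate 1 made 1142 CPM, against 629 CPM in the kept cells; on plates 2 and 3 it had 579 and 305 CPM, against 753 and 648 CPM in the kept cells. Tfrc had 1 transcript.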

How the results depend on the processing

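Each plate is a library, and plates 1, 2 and 3 were left out in turn. Sums of the same plate were fitted with the plate as the replicate block; without the block, Ftl1 in clusters 0 and 2 against cluster 1 differed by -0.84 and in cluster 1 against cluster 3 by 1.42 (adjusted p = 0.030, edgeR), and Fth1, Trf and Tfrc changed no call. The causes of the changes listed here were not tested. Ftl1 in clusters 0 and 2 against cluster 1 lost its call also without the low-count filter (-0.64) and with redrawn clusters (-0.84), and ranged from -1.45 to -0.80 with a plate left out. Cluster 1 against cluster 3 passed the threshold for Ftl1 with RLE factors (1.27), DESeq2 (1.25), thinned cells (1.54) and without the 3 cells of cluster 2 on plate 1 (1.29). For Fth1 it passed with RLE factors (1.13), DESeq2 (1.13), recovered identifiers (1.11), thinned cells (1.49) and without those 3 cells (1.21). Cluster 0 against cluster 2 passed with sums of at least 10 cells for Fth1 (0.42) and Trf (0.62).

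Signs of uncalled values turned for Tfrc between clusters 0 and 2 and cluster 3 without those 3 cells (0.049), for Ftl1 between clusters 0 and 2 with thinned cells (0.053), for Tfrc there with at least 10 cells (-0.017) and for Ftl1 in cluster 4 against cluster 3 with thinned cells (-0.84). With autofluorescence within plate and cluster, Fth1 turned to 0.13 without combinations of 1 cell, 0.084 without the block, 0.066 with sums per plate and cluster and 0.42 for the upper against the lower tercile; Trf turned to 0.32, 0.10 and 0.99 under the first, second and last of these. The log2 ratio of Fth1 to Ftl1 turned to 0.20 in cluster 1 against cluster 3, and 0 in cluster 4 against cluster 3, as medians over cells.

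With a plate left out, Ftl1 ranged from -0.32 to 0.33 and Tfrc from -1.54 to 1.45 in clusters 0 and 2 against cluster 3, Tfrc from -2.66 to 0.75 in cluster 1 against cluster 3, and Ftl1 from -0.44 to 0.14 in cluster 0 against cluster 2. In cluster 4 against cluster 3, Ftl1 ranged from -0.0010 to 0.19 and Tfrc was -0.27. With autofluorescence, Fth1 ranged from -0.20 to 0.11 and Trf from -0.36 to 0.17 within plate and cluster, Fth1 from -0.63 to 0.68 and Trf from -0.069 to 0.40 in cluster 1, Ftl1 from -0.32 to 0.071 and Trf from -0.18 to 0.029 in clusters 0 and 2, and Fth1 from -0.24 to 0.014 over whole plates. None of the 95 values of iron genes with autofluorescence under alternatives was called (lowest adjusted p = 0.18, edgeR or DESeq2).

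Counts of called genes over the whole table moved more. Clusters 0 and 2 against cluster 1 had 1530, 578 with thinned cells and 499 to 1645 with a plate left out (499 without plate 2, 639 without plate 3). Against cluster 3 there were 710, 1339 without the block, 199 with thinned cells and 210 to 468 with a plate left out (424, 468 and 210 without plates 1, 2 and 3). Cluster 1 against cluster 3 had 669, 440 with DESeq2, 1018 without the block, 330 with thinned cells and 270 to 349 (276, 349 and 270 without plates 1, 2 and 3). Cluster 0 against cluster 2 had 9, 1 with DESeq2, 14 without the block, 0 with thinned cells, 89 with at least 10 cells and 1 to 26 (26 without plate 1, 1 without plate 2 or 3). Cluster 4 against cluster 3 had 493, 229 with DESeq2, 258 without the filter, 131 with thinned cells, 259 with redrawn clusters and 214 to 217 (214 without plate 2, 217 without plate 3). Autofluorescence within plate and cluster had 0, 3 without combinations of 1 cell, 2 without the filter, 1 with terciles and 0 to 4 (4 without plate 1); in clusters 0 and 2 it had 0 to 1. Over whole plates it had 150, 11 without cluster 1, 0 without the block and 39 to 180 (39 without plate 2). Redrawn clusters merged clusters 0 and 2 and so gave no value for their difference. Depth limits Tfrc most, at 97 transcripts in all.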

Other observations

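Some iron genes too sparse for the fit were found mainly in the microglia-like cells; they were picked after their values were seen and carry no test. Hfe, a partner of the transferrin receptor, had 10.0 transcripts in cluster 1 and 1 in cluster 4. Hmox1, the inducible haem oxygenase, had 7 transcripts in cluster 1 and 1 in cluster 3.

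Within single plates and clusters of at least 8 cells, the levels of Fth1 and Trf had Spearman's rho from -0.250 to 0.434, with 7 of 8 values above 0, and Fth1 and Ftl1 from -0.033 to 0.594. Trf and Ftl1 ranged from -0.830, over the 10 cells of cluster 2 on plate 2, to 0.441, over the 18 cells of cluster 1 on plate 2, with 5 of 8 values above 0. These are descriptions of sparse counts. In cluster 4, 10.0 of its 16 Tfrc transcripts came from 1 cell.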
